A study of Mus musculus with 4 samples.

Results

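The 10 genes described here are enzymes of glycolysis, from the hexokinases to lactate dehydrogenase A, and the glucose transporter Slc2a1 (GLUT1). They were picked by symbol from the 32285 genes of the feature lists, with earlier results of these data known. The genes are Slc2a1, Hk1, Hk2, Pfkp, Aldoa, Gapdh, Pgk1, Eno1, Pkm and Ldha. All 10 were counted in 4 sections of mouse heart by Visium, an assay in which each barcoded spot of a slide collects mRNA from the small group of cells above it, counted as unique molecular identifiers (UMIs, 1 per captured molecule). Each section came from 1 adult ICR mouse, given in the study's methods as a female Hsd:ICR (CD1) animal of 12 weeks, whose left anterior descending (LAD) coronary artery had been tied for good to cause myocardial infarction (MI). The sections were taken 1, 4, 7 and 14 days after MI, and all 4 hearts carried the ligation, so no uninjured heart served as a control here. With 1 mouse per day, the day and the mouse cannot be told apart and no test between days was made.

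Cells take up glucose through transporters, of which GLUT1 serves most cell types and GLUT4 (Slc2a4) is the insulin-responsive form of heart and skeletal muscle. Glycolysis then turns glucose into pyruvate, which lactate dehydrogenase can turn into lactate, and it makes ATP without oxygen. The adult heart lives mainly on fatty acids and turns to glycolysis when oxygen is short. Several steps have isoforms, 1 typical of striated muscle (Eno3, Pfkm, Pgam2) and 1 used more broadly (Eno1, Pfkp, Pgam1), and Ldhb is the lactate dehydrogenase chain typical of heart. Many glycolytic genes are known targets of the hypoxia-inducible factors, whose DNA motif has the core ACGTG or GCGTG. Only ACGTG was searched for here.

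After spots with over 1% hemoglobin UMIs were removed, 7503 of 9102 spots remained, 1679 to 2086 per section, with 9292678 to 15713779 UMIs per section. All 10 genes passed the minimum of 1000 UMIs over the 4 sections, from 1184 UMIs for Slc2a1 to 145690 for Gapdh. Levels are given as UMIs per 1000000 of the spots summed (CPM), with exact Poisson 95% intervals that cover counting error only. Levels were compared between groups of spots for each gene on its own, and isoforms of the same step were set beside each other only as shares of their summed UMIs, which also depend on how well each mRNA is captured. Within each section spots were ranked by their share of UMIs from Myh6 and Myl2, which encode cardiac myosin chains, and cut into quartiles, so that the lowest is called muscle-poor and the highest muscle-rich. They were ranked a second time by their share from Ankrd1, Flnc, Xirp2 and Nppb, genes that stretched or injured cardiomyocytes raise, into low-stress to high-stress quartiles. In these mixtures, fewer cells of a type and less RNA per cell cannot be told apart.

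The promoter windows of Slc2a1 and Eno1 are shown because these genes rose in muscle-poor spots, and those of Ldha and Pgk1 as examples that hold ACGTG more than once. RefSeq promoter windows on GRCm38.p6, reaching from 250 bases before the transcription start to 50 bases from it, were found for 10 of 10 genes. Where a gene had several starts, the window nearest to the start of its principal transcript in GENCODE was taken. Each sequence is on the strand of its gene, and capitals mark ACGTG or, for the other strand, CACGT. Both overlap in CACGTG, which counts as 2 matches.
Slc2a1 (chr4:119108495-119108794, + strand): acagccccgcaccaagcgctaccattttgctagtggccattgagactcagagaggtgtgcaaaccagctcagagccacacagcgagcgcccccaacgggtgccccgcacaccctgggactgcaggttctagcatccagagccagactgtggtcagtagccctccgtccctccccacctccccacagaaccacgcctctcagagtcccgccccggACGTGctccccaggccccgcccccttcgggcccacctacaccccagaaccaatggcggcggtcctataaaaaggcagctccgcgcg
Eno1 (chr4:150236458-150236757, + strand): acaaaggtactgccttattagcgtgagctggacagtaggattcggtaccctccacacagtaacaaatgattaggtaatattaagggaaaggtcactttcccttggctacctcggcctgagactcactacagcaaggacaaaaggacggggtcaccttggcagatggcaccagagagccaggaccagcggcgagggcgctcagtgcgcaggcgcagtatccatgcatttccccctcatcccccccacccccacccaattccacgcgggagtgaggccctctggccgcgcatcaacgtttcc
Ldha (chr7:46845554-46845853, + strand): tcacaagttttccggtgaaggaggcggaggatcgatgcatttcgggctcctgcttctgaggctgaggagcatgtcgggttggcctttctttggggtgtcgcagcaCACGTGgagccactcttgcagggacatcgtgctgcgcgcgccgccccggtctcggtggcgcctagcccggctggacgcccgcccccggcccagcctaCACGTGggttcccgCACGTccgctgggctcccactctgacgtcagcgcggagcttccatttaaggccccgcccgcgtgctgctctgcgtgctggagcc
Pgk1 (chrX:106186850-106187149, + strand): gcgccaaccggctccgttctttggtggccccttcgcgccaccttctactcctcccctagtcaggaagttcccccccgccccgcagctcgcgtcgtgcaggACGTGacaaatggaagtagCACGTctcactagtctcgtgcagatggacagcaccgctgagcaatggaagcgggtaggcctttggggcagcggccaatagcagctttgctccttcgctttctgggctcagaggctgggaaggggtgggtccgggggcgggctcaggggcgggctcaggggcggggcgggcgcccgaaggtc
ACGTG stood in 5 of the 10 windows, those of Slc2a1, Hk2, Gapdh, Pgk1 and Ldha, and in 6447 of all 32851 windows of the same length (19.6%). The count depends on the start chosen, since with any of the 17 windows of these genes taken, 8 of the 10 held ACGTG, Hk1, Aldoa and Pkm being the others. In the windows chosen, Slc2a1 had 1 match, its first base 36 bases before the start, Ldha had 5 and Pgk1 had 2, while the Eno1 window had none. GCGTG was not counted, and the Eno1 window does hold it. A match describes the sequence and is not a binding site.

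Glucose transporter 1 and alpha-enolase were higher where heart muscle was scarce, and glyceraldehyde-3-phosphate dehydrogenase, aldolase A and hexokinase 2 were lower there. The comparison was made on UMIs summed per section and quartile (16 libraries), with edgeR's quasi-likelihood test, TMM scaling and the section as a block. Of 4767 genes tested, 35.2% were called higher and 32.5% lower in the muscle-poor quartile at a Benjamini-Hochberg adjusted p under 0.05. Against this background, 2 of the 10 genes were called higher and 3 lower, which is no larger share than that of all genes. The 3 lower calls were lost by total UMIs and in a fit of only both compared quartiles. The median log2 fold change of the 10 genes was -0.22, and that of all tested genes was 0.05. Scaling by total UMIs in place of TMM moved the median of all genes to 0.46 and that of the 10 genes to 0.19, with 2578 genes called higher and 938 lower in place of 1676 and 1548, so every fold below is relative to the TMM scale unless the other is named.

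Slc2a1 (chr4:119108711-119137983, + strand, GRCm38) was at 82.2 CPM in the muscle-poor and 16.2 in the muscle-rich quartile on day 1, and at 59.1 and 13.7 on day 4. On day 7 it was at 25.2 and 10.8, and on day 14 at 16.8 and 15.5. The quartiles stood apart beyond counting error on days 1, 4 and 7, and their intervals overlapped on day 14. Over the 4 sections Slc2a1 rose by a log2 fold change of 1.13 (SE 0.28, edgeR adjusted p = 0.00331). Without the day 1 section the value was 0.75 and missed the threshold (edgeR adjusted p = 0.0554). These levels rest on 28 to 225 UMIs per quartile.

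Both hexokinases, which trap glucose in the cell as glucose 6-phosphate, differed between days in the direction they took. Hk2 (chr6:82725025-82774454, - strand), the isoform typical of muscle and fat, was at 255 CPM in the muscle-poor and 151 in the muscle-rich quartile on day 1, but at 65.6 and 118 on day 4. It was at 70.1 and 145 on day 7 and at 98.9 and 125 on day 14. Hk2 was therefore higher in muscle-poor spots on day 1 and lower on the other days, and its fitted log2 fold change was -0.68 (SE 0.28, edgeR adjusted p = 0.0435). The call was lost without day 4, day 7 or day 14, at log2 fold changes of -0.41, -0.43 and -0.73. Hk1 (chr10:62268855-62379908, - strand), the broadly used hexokinase, was at 211 and 134 CPM on day 1, 99.0 and 84.0 on day 4, 45.6 and 130 on day 7, and 91.2 and 99.2 on day 14. Its log2 fold change was -0.46 (SE 0.27, edgeR adjusted p = 0.150), and -0.82 without day 1 (edgeR adjusted p = 0.0278). On day 4 mitochondrial genes made up 8.73% of UMIs in the muscle-poor and 33.2% in the muscle-rich quartile. By the UMIs that were not mitochondrial, 2517790 and 2535894 of 2758599 and 3796433, Hk1 was the lower in muscle-poor spots that day. The difference between days was not tested, with 1 mouse each.

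Pfkp (chr13:6579768-6648777, - strand), the platelet-type chain of phosphofructokinase at the committed step, was at 164 and 46.4 CPM in the muscle-poor and muscle-rich quartiles on day 1, 116 and 44.3 on day 4, 54.4 and 66.0 on day 7, and 73.4 and 60.9 on day 14. The quartiles were clearly apart on days 1 and 4 alone. The fitted log2 fold change was 0.48 (SE 0.28, edgeR adjusted p = 0.142). Without day 7 it was 0.79 and passed (edgeR adjusted p = 0.0211), and by total UMIs it was 0.89 (edgeR adjusted p = 0.0167).

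Aldoa (chr7:126795234-126800751, - strand), the aldolase that splits the sugar, was at 2003 and 2496 CPM in the muscle-poor and muscle-rich quartiles on day 1, 1428 and 2218 on day 4, 2603 and 2361 on day 7, and 1715 and 2103 on day 14. The muscle-poor quartile was lower on 3 of 4 days. On day 7, 116 of its 462 spots had at least 10 UMIs of a list of 10 fast skeletal muscle genes. The 119 such spots of that section held Aldoa at 6190.0 CPM, and the muscle-poor quartile without them was at 821, below the muscle-rich one. Leaving them out also took that quartile from 70.1 to 31.5 CPM for Hk2, and from 54.4 to 69.1 for Pfkp. Over the sections Aldoa fell by 0.66 on the log2 scale (SE 0.18, edgeR adjusted p = 0.00678), and by 1.00 when skeletal muscle spots were left out before ranking.

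Gapdh (chr6:125161715-125166467, - strand), which makes the first NADH of the pathway, was at 2626 and 3064 CPM in the muscle-poor and muscle-rich quartiles on day 1, 2443 and 2700.0 on day 4, 2340.0 and 2959 on day 7, and 2668 and 3219 on day 14. It was lower in muscle-poor spots on every day. The fitted log2 fold change was -0.65 (SE 0.15, edgeR adjusted p = 0.00204). By total UMIs, the calls of Gapdh (-0.24), Aldoa (-0.27) and Hk2 (-0.29) were all lost, with the sign kept. With only both compared quartiles in the fit the log2 fold changes were -0.64, -0.67 and -0.76, about as large, and missed the threshold (edgeR adjusted p = 0.126, 0.127 and 0.122). On day 7 the muscle-poor quartile without skeletal muscle spots held Gapdh at 1126 CPM.

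Pgk1 (chrX:106187100-106203699, + strand), which makes the first ATP of the pathway, was at 625 and 362 CPM in the muscle-poor and muscle-rich quartiles on day 1, 430.3 and 319 on day 4, 322 and 309 on day 7, and 294 and 340.5 on day 14. In CPM the muscle-poor quartile was the higher on days 1 and 4 and the lower on day 14. On day 4 mitochondrial genes, which count in that total, made up 8.73% of its UMIs and 33.2% in the muscle-rich quartile. Of the 2758599 and 3796433 UMIs of both quartiles on day 4, 2517790 and 2535894 were not mitochondrial. By that smaller total Pgk1 was not the higher in muscle-poor spots on day 4. On day 7 the sign turned with the skeletal muscle spots, without which the muscle-poor quartile was at 203 CPM. Its log2 fold change was -0.12 (SE 0.15, edgeR adjusted p = 0.473), and 0.29 by total UMIs, neither of which passed. Without day 1 it was -0.35 (edgeR adjusted p = 0.0427).

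Eno1 (chr4:150236721-150248879, + strand), alpha-enolase, was at 228 and 49.5 CPM in the muscle-poor and muscle-rich quartiles on day 1, 262 and 51.4 on day 4, 108 and 57.2 on day 7, and 80.1 and 56.9 on day 14. The muscle-poor quartile was the higher on all 4 days, beyond counting error each time, while the muscle-rich quartiles lay close together. Eno1 rose by a log2 fold change of 1.12 (SE 0.23, edgeR adjusted p = 0.000954). The call held in every alternative run, with log2 fold changes of 0.85 to 1.38 as each section was left out in turn. The copy gene Eno1b had 280 UMIs in all, and reads that fit both equally could have gone uncounted.

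Pkm (chr9:59656368-59679375, + strand), pyruvate kinase, was at 1165 and 915 CPM in the muscle-poor and muscle-rich quartiles on day 1, 1039 and 673 on day 4, 792 and 812 on day 7, and 622 and 746 on day 14. Ldha (chr7:46841475-46855627, + strand), the lactate dehydrogenase A chain, was at 1204 and 871 on day 1, 784 and 714 on day 4, 901 and 787 on day 7, and 661 and 698 on day 14. In CPM both were higher in muscle-poor spots on days 1 and 4 and not on day 14. On day 4 mitochondrial genes made up 8.73% of UMIs in the muscle-poor and 33.2% in the muscle-rich quartile. Of the 2517790 and 2535894 UMIs that were not mitochondrial, Ldha held 2162 and 2709. By that total Ldha was the lower in muscle-poor spots on day 4. Without skeletal muscle spots the muscle-poor quartile of day 7 was at 557 for Pkm and 591 for Ldha, both below the muscle-rich one. Neither passed, with log2 fold changes of -0.22 (SE 0.14, edgeR adjusted p = 0.162) for Pkm and -0.22 (SE 0.13, edgeR adjusted p = 0.138) for Ldha, which turned to 0.19 and 0.18 by total UMIs. Ldha was called by DESeq2 at -0.24 (adjusted p = 0.0376), and by edgeR at -0.45 with genes of at least 100 UMIs (adjusted p = 0.0373) and at -0.37 without skeletal muscle spots (adjusted p = 0.0469).

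**Figure D1:**
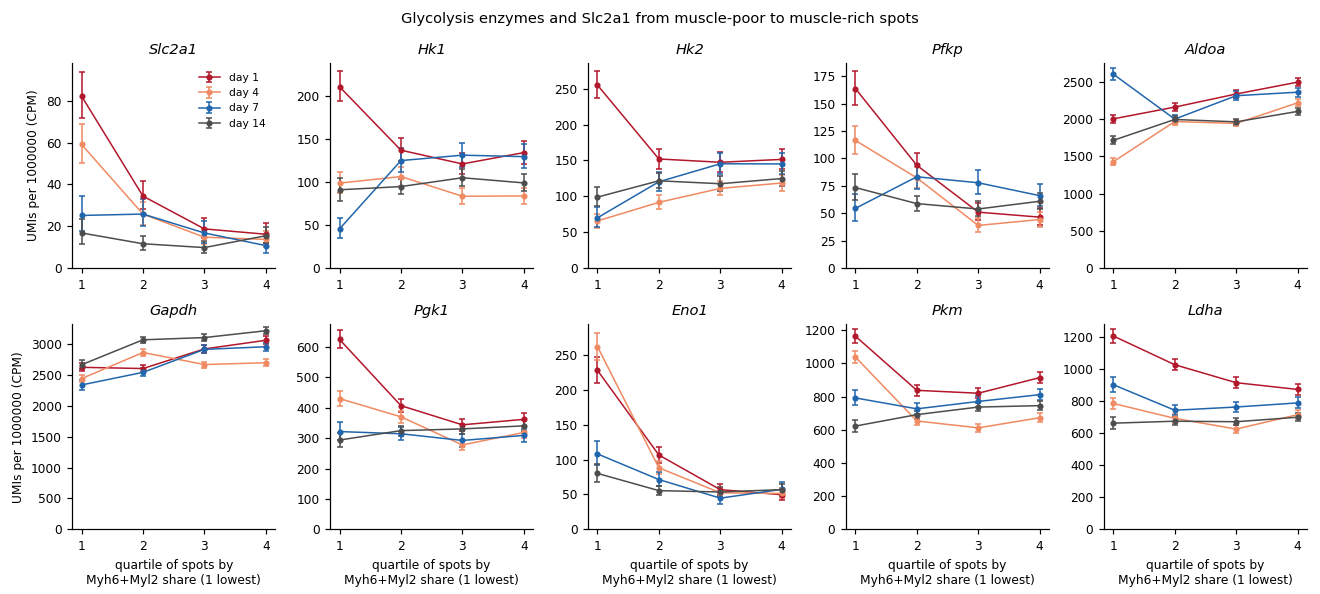
UMIs per 1000000 (CPM) of each of the 10 genes in the 4 quartiles of spots ranked by Myh6 and Myl2 share, 1 line per day, with exact Poisson 95% intervals. Slc2a1 and Eno1 are higher in the muscle-poor quartile 1 than in the muscle-rich quartile 4, most so on days 1 and 4, while Gapdh is higher in quartile 4 than in quartile 1 on every day and Hk2 turns between day 1 and the later days.

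Other cell types moved with this ranking. The 9 macrophage markers summed to 1128 to 6518 CPM in the muscle-poor and 300.0 to 461 in the muscle-rich quartiles, and the 6 fibroblast markers to 1784 to 30220.0 and 1023 to 1451, with every gene of both lists counted in each. The 6 neutrophil markers were at 426 CPM in the muscle-poor quartile of day 1, 80.1 to 169 in those of the other days, and 5.00 to 17.5 in the muscle-rich quartiles, 1 gene being at 0 in the muscle-rich quartiles of days 1 and 14. The mitochondrial share was 8.73% to 29.8% of UMIs in muscle-poor and 27.1% to 33.2% in muscle-rich quartiles. The part of each in the results above was not tested. The ranking also spanned less on day 14, when Myh6 and Myl2 ran from 1.53% to 2.56% of UMIs, than on day 1, when they ran from 0.773% to 2.82%. They ran from 0.271% to 2.57% on day 4 and from 0.229% to 2.80% on day 7. The muscle-poor quartiles of different days are therefore unlike in this share. Their median UMIs per spot were 6389, 6524.5, 2826 and 2329.5 on days 1, 4, 7 and 14.

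The striated-muscle isoforms of the same steps were lower in muscle-poor spots, a direction that a ranking by heart muscle genes favours. Of the 22 other glycolysis genes listed, 11 were tested. In muscle-poor spots 1 was called higher and 10 lower, beside 35.2% and 32.5% of all genes. Their median log2 fold change was -1.06, against 0.05 over all genes. Slc2a4 (GLUT4) fell by 1.93 (SE 0.33, edgeR adjusted p = 0.000291), Ldhb by 1.87 (SE 0.31), Eno3 by 1.71 (SE 0.36), Pfkm by 1.55 (SE 0.32) and Pgam2 by 1.06 (SE 0.25). The gene called higher was Pgam1, the broadly used phosphoglycerate mutase, at 0.69 (SE 0.20, edgeR adjusted p = 0.00862). Triose-phosphate isomerase Tpi1 (-0.60), glucose-6-phosphate isomerase Gpi1 (-0.40) and the liver-type phosphofructokinase chain Pfkl (-0.49) were also lower, as were the lactate carrier Slc16a1 (-1.27) and Tigar (-1.04), a fructose bisphosphatase that works against glycolysis.

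The balance of each pair can be read as a share of the pair's UMIs, which no library scaling can change. These pairs were chosen after the values were seen. Spots were ranked by heart muscle genes, and partner genes typical of muscle tend to fall with them. A share can therefore rise through its partner alone, and a higher share need not mean more of the first gene. Eno1 made up 33.4%, 58.4%, 10.5% and 6.89% of Eno1 and Eno3 UMIs in the muscle-poor quartiles of days 1, 4, 7 and 14, and 3.19% to 3.92% in the muscle-rich quartiles. Slc2a1 made up 46.1%, 53.1%, 17.7% and 7.46% of Slc2a1 and Slc2a4 UMIs in muscle-poor quartiles, and 3.31% to 4.85% in muscle-rich ones. For both genes the muscle-poor quartile was the higher on each day, by the widest margin on day 4.

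Ldha made up 58.6%, 69.5%, 65.1% and 34.2% of Ldha and Ldhb UMIs in the muscle-poor quartiles of days 1, 4, 7 and 14, and 27.6% to 29.6% in the muscle-rich quartiles. Pfkp made up 43.8%, 46.9%, 9.89% and 13.9% of Pfkp and Pfkm UMIs in muscle-poor quartiles, and 6.29% to 9.01% in muscle-rich ones. Pgam1 made up 31.5%, 60.3%, 18.2% and 13.7% of its pair with Pgam2, and 7.50% to 14.4% in muscle-rich quartiles. All 5 shares were higher in the muscle-poor quartile on all 4 days, a direction that the ranking favours through the partner genes. The exact 95% intervals of the quartiles overlapped for Pfkp on day 7 and for Slc2a1 on day 14. A two-sided exact sign-flip test over 4 sections cannot give a p below 0.125.

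The day 7 shares moved with the skeletal muscle spots of that section, which held Eno3 at 2424 CPM against 1240.0 in its other spots. With such spots left out, the muscle-poor share on day 7 rose to 33.5% for Eno1, 33.6% for Slc2a1, 31.6% for Pfkp and 49.5% for Pgam1. For Ldha it fell to 57.5%. Day 7 then lay between days 4 and 14 for all 5 pairs, as it had before for every pair but that of Pfkp.

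**Figure D2:**
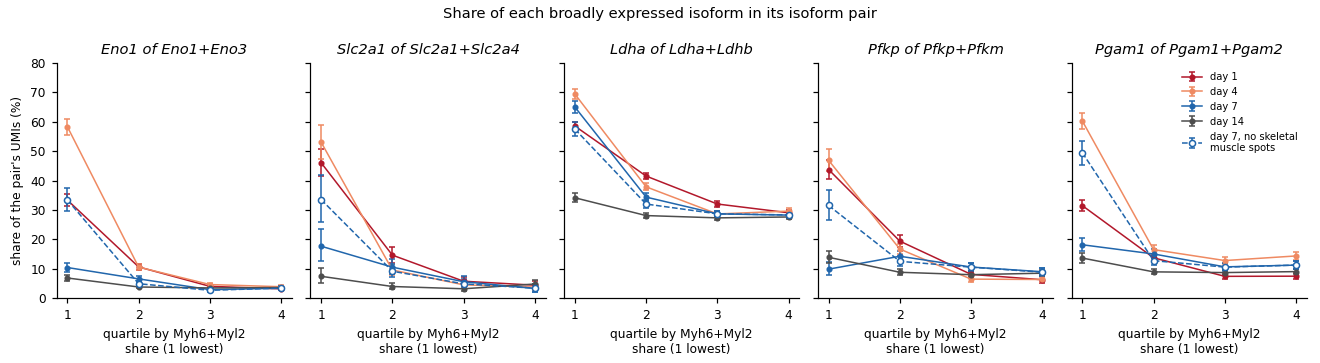
Share of the pair's UMIs (percent, with exact 95% binomial intervals) held by Eno1, Slc2a1, Ldha, Pfkp and Pgam1 in the 4 quartiles of spots ranked by Myh6 and Myl2 share. Each line is 1 day and the dashed line is day 7 without skeletal muscle spots. The shares stand highest in quartile 1, reaching 69.5% for Ldha on day 4, but for the solid day 7 line of Pfkp. That line is at 9.89% in quartile 1 and 14.3% in quartile 2. The days lie closer together in quartile 4 than in quartile 1.

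Genes that feed or drain the pathway were mostly lower in muscle-poor spots too. A ranking by heart muscle genes itself favours a fall of genes typical of muscle, so the counts are a description. Of 15 listed genes of glycogen and pyruvate use, 13 were tested, and 0 were called higher and 12 lower, beside 35.2% and 32.5% of all genes, with a median log2 fold change of -1.31. DESeq2 called 0 higher as well, and 0 were higher at an unadjusted p under 0.05. Pdk2, an inhibitory kinase of pyruvate dehydrogenase, fell by 1.61, and Pdhb, a subunit of that enzyme, by 1.58. Of 15 listed hypoxia targets, 9 were tested, 2 higher and 4 lower, with a median log2 fold change of -0.52, so neither count stood far from the shares of all genes. P4ha1, a collagen prolyl hydroxylase, was higher by 0.92 (SE 0.20, edgeR adjusted p = 0.0014). Pdk1, like Pdk2 an inhibitory kinase of pyruvate dehydrogenase, was lower, at a log2 fold change of -1.34 (SE 0.22).

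In the ranking by stress genes, phosphofructokinase P was the gene of the 10 that changed. In the high-stress against the low-stress quartile, 1.01% of 4765 genes were called higher and 0.294% lower, and of the 10 genes 1 was called higher and 0 lower. DESeq2 also called 1 higher and 0 lower, and at an unadjusted p under 0.05 there were 3 and 0. The median log2 fold change was 0.21 for the 10 genes and -0.01 for all genes, and 0.33 and 0.11 by total UMIs. By total UMIs 92 genes were called higher and 12 lower, in place of 48 and 14. The count of genes called higher by edgeR ran from 0 without day 4 and 5 without day 7 to 134 without day 1.

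Pfkp was at 160.3 CPM in the high-stress and 44.0 in the low-stress quartile on day 1, 117 and 55.1 on day 4, 93.9 and 57.4 on day 7, and 76.1 and 52.8 on day 14. It was higher in high-stress spots in all 4 sections, beyond counting error in each. Pfkp rose by a log2 fold change of 0.94 (SE 0.18, edgeR adjusted p = 0.0232). The size held without any 1 section (0.72 to 1.11), but the call did not without day 4, 7 or 14 (edgeR adjusted p = 0.248, 0.154 and 0.0541).

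Hk1 was at 198 CPM in the high-stress and 124 in the low-stress quartile on day 1, 125 and 69.4 on day 4, 127 and 75.3 on day 7, and 105 and 95.4 on day 14. It too was higher in every section, though on day 14 by less than counting error, and its log2 fold change of 0.46 (SE 0.15) missed the threshold (edgeR adjusted p = 0.184). By total UMIs it was 0.60 and passed (edgeR adjusted p = 0.0433). Hk2 was at 249.7 and 146 CPM on day 1 and differed little on later days, with a log2 fold change of 0.15 (SE 0.17).

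Slc2a1 and Eno1 differed between the stress quartiles on day 1, and whether the days differ was not tested. Slc2a1 was at 78.7 CPM in the high-stress and 14.1 in the low-stress quartile on day 1, 36.7 and 30.8 on day 4, 24.8 and 24.9 on day 7, and 14.7 and 10.9 on day 14. Eno1 was at 207 and 46.6 CPM on day 1, 129 and 133 on day 4, 73.1 and 86.3 on day 7, and 56.8 and 66.4 on day 14. The quartiles were apart beyond counting error on day 1 and overlapped on the other days for both genes. The fitted log2 fold changes were 0.68 (SE 0.30, edgeR adjusted p = 0.338) for Slc2a1 and 0.28 (SE 0.29, edgeR adjusted p = 0.705) for Eno1, which was -0.23 without day 1.

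Pgk1 was at 586 CPM in the high-stress and 350.0 in the low-stress quartile on day 1, 455 and 299 on day 4, 323 and 292 on day 7, and 326 and 321 on day 14. It was apart on days 1 and 4 and not later, with a log2 fold change of 0.27 (SE 0.12, edgeR adjusted p = 0.368). The fitted differences of Aldoa (-0.11), Gapdh (-0.05), Pkm (0.00) and Ldha (0.03) were all within their SE. Aldoa and Gapdh had the other sign by total UMIs, at 0.01 and 0.09.

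On days 1 and 4 the high-stress quartile was also poorer in muscle. Myh6 and Myl2 made up 0.956% of its UMIs against 2.53% in the low-stress quartile on day 1, and 1.02% against 1.63% on day 4. The order was the other way on day 7, at 1.87% against 1.17%, and on day 14 they were at 2.14% and 2.13%. On day 1 macrophage markers were at 977 against 296 CPM and neutrophil markers at 320 against 18.8. On day 7 the order of the macrophage markers was the other way, at 1296 in the high-stress and 3236 in the low-stress quartile, of whose spots 78 were skeletal muscle spots. The part of these in the levels above was not tested. Of the 11 other glycolysis genes tested, 0 were called in either direction by edgeR or DESeq2, and 0 were higher and 2 lower at an unadjusted p under 0.05.

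**Figure D3:**
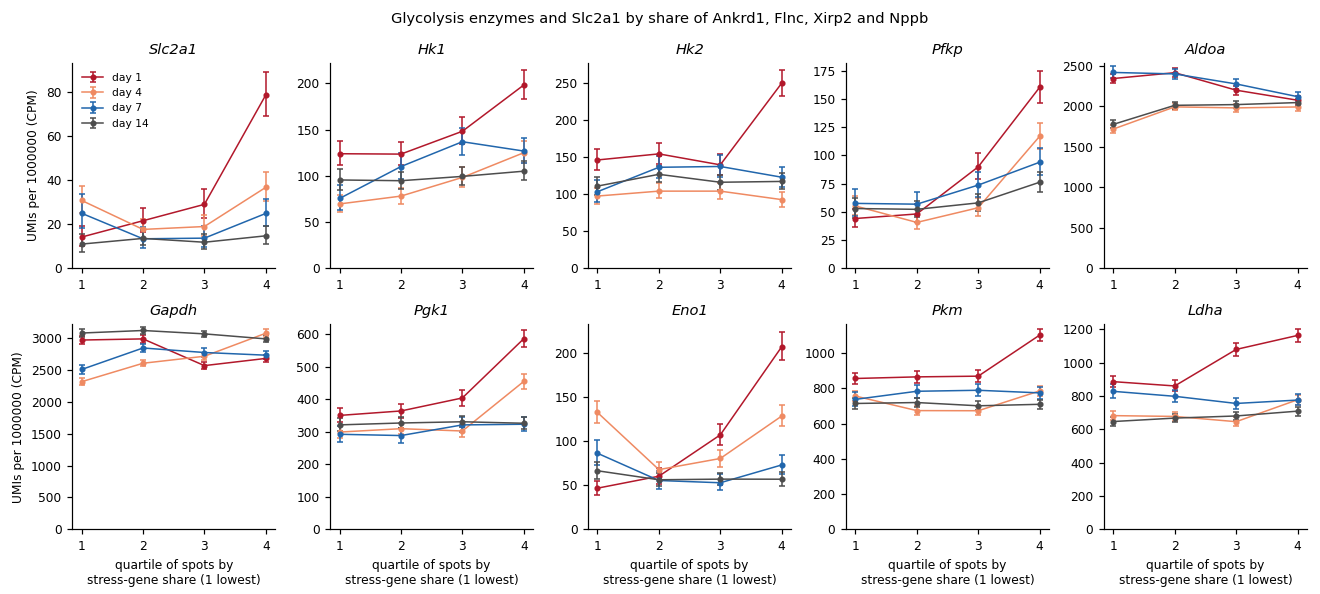
UMIs per 1000000 (CPM) of each of the 10 genes in the 4 quartiles of spots ranked by the share of Ankrd1, Flnc, Xirp2 and Nppb, 1 line per day, with exact Poisson 95% intervals. Pfkp is highest in quartile 4 on every day, while Slc2a1 and Eno1 climb from each quartile to the next on day 1 and not on the other days.

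The stress ranking was repeated among the muscle-rich spots, those above their section's median share of Myh6 and Myl2. There Gapdh and Pkm were slightly lower in high-stress spots on the TMM scale but not by total UMIs. On the TMM scale none of the 10 genes was called higher. In this comparison 7.22% of 4763 genes were called higher and 7.75% lower, and of the 10 genes 0 were called higher and 2 lower. The count of 0 higher was the same by DESeq2 and at an unadjusted p under 0.05. By total UMIs it was not, as 2 were called higher and 0 lower. Gapdh fell by 0.13 on the log2 scale (SE 0.03, edgeR adjusted p = 0.000823) and Pkm by 0.11 (SE 0.04, edgeR adjusted p = 0.0395).

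In plain CPM Gapdh was at 2937 in the high-stress and 3005 in the low-stress quartile of these spots on day 1, 2778 and 2561 on day 4, 3066 and 2793 on day 7, and 3044 and 3306 on day 14. With mitochondrial genes in the total, the levels in CPM thus went both ways between days. The mitochondrial share of UMIs was lower in the high-stress quartile on each day, at 32.4% against 39.0% on day 4 and 24.6% against 31.0% on day 7. Its part in these levels was not tested. By total UMIs 936 genes were called higher and 103 lower in place of 344 and 369, and the fitted values of Gapdh and Pkm were 0.02 and 0.04, neither called. Pfkp was at 57.5 and 46.0 CPM on day 1, 53.8 and 37.9 on day 4, 83.9 and 66.7 on day 7, and 65.9 and 57.6 on day 14. It was again higher on all 4 days, with a log2 fold change of 0.17 (SE 0.11, edgeR adjusted p = 0.313), and of 0.32 by total UMIs (edgeR adjusted p = 0.0198). Slc2a1 was at 24.9 and 14.9 CPM on day 1, on 39 and 22 UMIs, and its intervals overlapped on each day. The muscle isoforms did not all fall on the TMM scale. Eno3 was at -0.27 (SE 0.03, edgeR adjusted p = 1.96e-10) and Ldhb at -0.25 (SE 0.03, edgeR adjusted p = 5.13e-10). Pfkm was at -0.16 (SE 0.04, edgeR adjusted p = 0.00277). Slc2a4 (-0.07, SE 0.05) and Pgam2 (-0.05, SE 0.04) were not called. Of the 11 other glycolysis genes tested, 0 were called higher and 4 lower on that scale. The median log2 fold change of the 11 other glycolysis genes tested was -0.12 on that scale and 0.03 by total UMIs.

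Among the spots at or under the median of Myh6 and Myl2, those richest in macrophage markers were set against those poorest in them, where 32.6% of 4760 genes were called higher and 30.3% lower (1553 and 1443 genes, and 2621 and 846 by total UMIs). Of the 10 genes, Eno1 was higher by 1.00 (SE 0.19, edgeR adjusted p = 0.000835) and 6 were lower, from Ldha (-0.57) to Hk2 (-1.48). By total UMIs 3 were called higher and 3 lower, and Ldha was at -0.05. Heart muscle fell along this ranking too, which had been made among muscle-poor spots. Myh6 and Myl2 went from 1.47% of UMIs in the spots poorest in macrophage markers to 0.938% in the richest on day 1, from 1.47% to 0.153% on day 4, from 1.53% to 0.322% on day 7 and from 2.03% to 0.721% on day 14. The mitochondrial share fell with them, on day 4 from 35.7% to 3.62%. On day 7 the quartile poorest in macrophage markers held 39 skeletal muscle spots and the richest 8. The part of these in the counts was not tested.

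**Figure D4:**
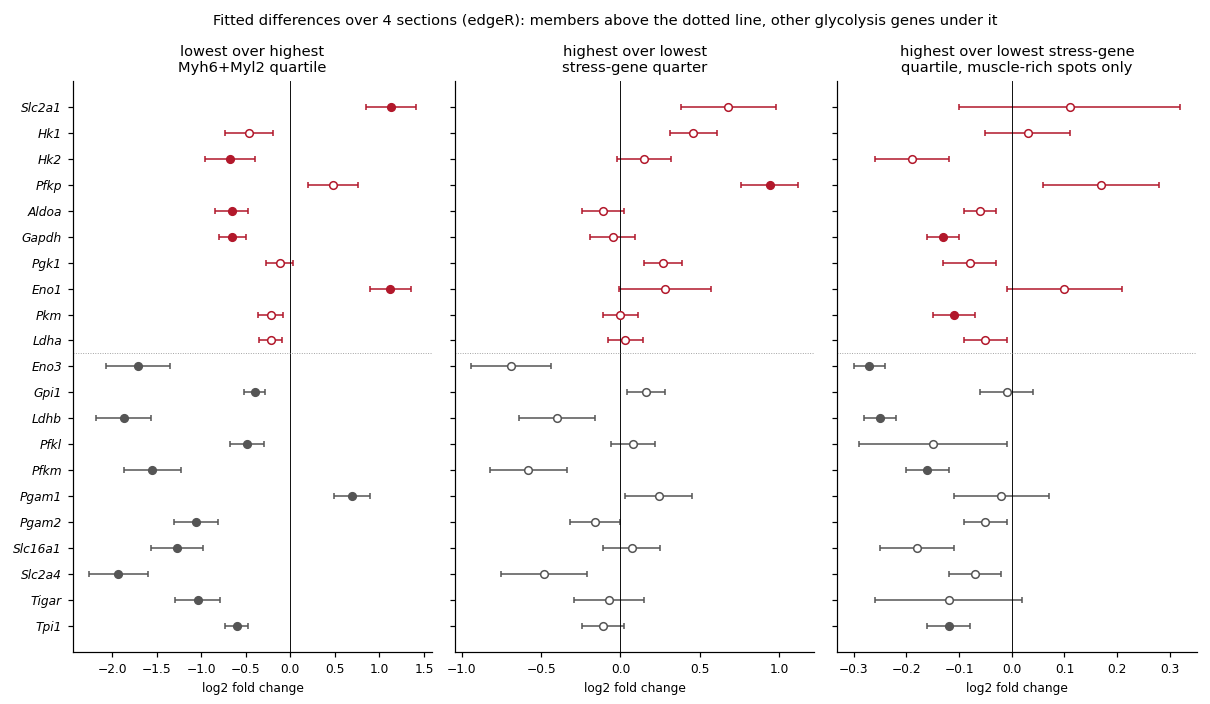
Log2 fold changes (points) with standard errors (bars) from edgeR for the 10 genes (red, above the dotted line) and 11 other glycolysis genes (grey) in 3 comparisons, with filled points at an adjusted p under 0.05 and a different scale on each x axis. Slc2a1, Eno1 and Pgam1 are the filled points right of 0 in the first panel, Pfkp is the filled point of the second, and the third spans the narrowest range.

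Over whole sections, most of the 10 genes were highest on day 1, as a description of 4 hearts. Slc2a1 was at 36.7 CPM on day 1 (95% interval 33.3 to 40.2), 25.7 on day 4 (23.2 to 28.5), 18.9 on day 7 (16.2 to 22.0) and 12.8 on day 14 (11.1 to 14.7), each day below the one before beyond counting error. Eno1 was at 107, 101, 65.6 and 58.5 CPM on days 1, 4, 7 and 14, and the intervals of days 1 and 4 overlapped, as did those of days 7 and 14. Pfkp was at 86.6, 65.9, 72.3 and 59.8 CPM. For Slc2a1 and Eno1 the muscle-rich quartiles differed less between days than the muscle-poor ones did.

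Hk1 was at 149, 92.3, 116 and 98.6 CPM on days 1, 4, 7 and 14, and Hk2 at 174, 99.5, 126 and 118. Both were lowest on day 4. Pgk1 was at 429, 341, 308 and 327 CPM, Pkm at 927, 720.2, 773 and 710.4, and Ldha at 998, 695, 785 and 677. Gapdh was highest on day 14, at 2809, 2683, 2734 and 3069 CPM. Aldoa was at 2254, 1922, 2285 and 1977 CPM, highest on day 7, whose value was 2068 in the spots that were not skeletal muscle spots. Some orders of days changed without mitochondrial genes in the total. Aldoa was then highest on day 1, at 3078 against 3007 on day 7. Pkm was at 1077 on day 14, above 1020 on day 4 and 1018 on day 7.

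Across the 16 libraries of the Myh6 and Myl2 ranking, the most alike pair of the 45 was Eno1 with Slc2a1 (Pearson r of log2 CPM 0.91, and 0.94 after each day's mean was taken away). Pgk1 (0.82) and Pfkp (0.82) also went with Slc2a1. The least alike were Gapdh with Eno1 (-0.65) and Gapdh with Slc2a1 (-0.64), and 13 of 45 pairs were below 0. After each day's mean was taken away, the least alike were Pfkp with Aldoa (-0.77) and Aldoa with Slc2a1 (-0.72). In the 16 libraries of the stress ranking Eno1 with Slc2a1 was again the most alike (0.92). Libraries of a section share its mouse and total, so these values carry no test.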

How the data were processed

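The authors deposited UMI counts per gene and spot for 4 Visium sections, made with Space Ranger 1.3.0 on mm10 from images aligned by hand, without normalization and with spots under tissue alone. Per the labels, Seurat 4.1.1 was used later, and its output was not used here. The annotation behind the counts is not given in the sources used here. The study's results text names another day for the first section, and the day of the labels and methods was used.

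Spots with over 1% of UMIs from 8 hemoglobin genes were removed. Counts were summed per section and quartile of ranked spots, since spots are not replicates, and genes with at least 1000 UMIs were tested without the ranking genes. edgeR 4.0.16 with limma 3.58.1 was fitted to the sums by robust quasi-likelihood after TMM scaling, with section and quartile as factors, and the Benjamini-Hochberg adjustment ran over every gene tested. The 4 sections act as replicates but come from different days, so the test asks for a difference shared by the days. Genes that vary with the ranking genes must differ between its quartiles, and the share of all genes called is the background. The SE is the log2 fold change divided by the root of the F statistic. The common dispersion was 0.0377 for the Myh6 and Myl2 ranking with 9 residual degrees of freedom. In simulated counts of 4767 genes, 200 were changed by a log2 value of 1 in that comparison. Of these, 198 were recovered, and 15 of 213 calls were wrong. The simulation was set to a lower dispersion than the fitted one and changed a far smaller share of genes than was called. It therefore checks that the fit runs as meant and gives no power or error rate for the real comparison. Libraries of that ranking held 1470333 to 4729701 UMIs, with TMM factors of 0.822 to 1.38. Ratios and shares have exact 95% intervals. DESeq2 1.42.0 and the other alternatives are given in the closing section.

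Named genes are the 10 members in every comparison, the tested genes of the other glycolysis list, and up to 4 tested genes with the largest change from each of the hypoxia and the glycogen and pyruvate lists. Members and lists were chosen with earlier results of these data known. Of both Ensembl identifiers named Aldoa, the one with UMIs was used, as the other had 0. Spot barcodes are printed on the slide, and 1332 occurred in all 4 sections. Gene positions are those of GENCODE vM21 on GRCm38. Spot positions and images were not used.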

Additional observations from a re-analysis of the deposited data

Results flagged for a closer look

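Several genes went opposite ways on different days, beyond counting error on both, in 1 heart per day. The difference between the days was not tested. Values are log2 ratios of CPM without TMM. Mitochondrial genes count in the total, and their share differed between the quartiles compared. In the muscle-poor over the muscle-rich quartile, Hk1 was at 0.65 on day 1 and -1.51 on day 7, Hk2 at 0.75 on day 1 and -1.05 on day 7, and Pgk1 at 0.79 on day 1 and -0.21 on day 14. Pkm was at 0.63 on day 4 and -0.26 on day 14. Aldoa was at 0.14 on day 7, whose muscle-poor quartile held 116 skeletal muscle spots, and at -0.64 on day 4.

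In the high-stress over the low-stress quartile, Aldoa was at 0.21 on day 4 and -0.19 on day 7, and Gapdh at 0.41 on day 4 and -0.15 on day 1. On day 7 the low-stress quartile held 78 skeletal muscle spots and the high-stress one 0. Among muscle-rich spots Gapdh was at 0.13 on day 7 and -0.12 on day 14. The mitochondrial share in these high-stress and low-stress quartiles was 24.6% and 31.0% on day 7, and 31.74% and 35.45% on day 14. In spots rich over poor in macrophage markers, among those with little Myh6 and Myl2, Pgk1 was at 0.42 on day 1 and -0.79 on day 14, Pkm at 0.63 on day 4 and -0.55 on day 7, and Ldha at 0.28 on day 1 and -0.59 on day 7. The mitochondrial share in the richest and the poorest of these quartiles was 17.15% and 28.56% on day 1, and 3.617% and 35.71% on day 4. It was 4.339% and 27.58% on day 7, and 10.18% and 36.7% on day 14. A smaller mitochondrial share by itself raises CPM in the richest quartile. On day 7 the poorest of these quartiles held 39 skeletal muscle spots and the richest 8. The part of the mitochondrial share and of these spots was not tested.

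In 2 cases 1 section lay far from the other 3, by a gap test that chance meets in about 1 of 20 such groups, and 40 were looked at. Eno1 was at 2.15 on day 1 in the stress ranking, and Slc2a1 at 1.38 on day 4 in the macrophage ranking.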

How the results depend on the processing

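The call of Eno1 in muscle-poor spots held in all 15 alternatives, and that of Slc2a1 in all but the one without day 1. Over the 10 genes, 4 comparisons and 15 alternatives, 509 of 600 values kept their sign and their side of the threshold, 44 lost a call, 18 gained one and 29 changed sign. Why was not tested. Without mitochondrial genes in the total, all 40 levels by day moved beyond counting error, since the total is then smaller. The mitochondrial share ran from 24.0% on day 7 to 34.05% on day 14, so some orders of days changed too. For Slc2a1 the intervals of day 7 (21.4 to 28.9 CPM) and day 14 (16.8 to 22.3) then overlapped. Slc2a1, at 1184 UMIs, limits what could be seen within quartiles.

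Numbers of the 10 genes follow as higher and lower, then those of all genes. By total UMIs there were 0 lower for the Myh6 and Myl2 ranking (2578 and 938 genes), 2 higher for the stress ranking (92 higher), 2 and 0 among muscle-rich spots (936 and 103), and 3 and 3 for macrophage markers (2621 and 846). With genes of at least 100 UMIs there were 5 lower for Myh6 and Myl2 (3200 and 2903), 36 genes lower for stress, and 2530 and 2405 for macrophage markers. With all genes the counts were 3322 and 2986, 83 and 50, and for macrophage markers 2461 lower. With only both compared quartiles there were 0 lower for Myh6 and Myl2 (1136 and 1055 genes), 0 higher for stress (1 and 0 genes) and 0 lower among muscle-rich spots. DESeq2 gave 97 and 45 genes for stress, and 173 and 227 with 1 of the 10 lower among muscle-rich spots. Without the section block there were 0 higher for stress (2 and 0 genes), 0 lower among muscle-rich spots (1 and 0 genes), and 2 lower for macrophage markers (1031 genes higher). With 3 groups in place of 4 there were 0 higher for stress (1 and 1 genes) and 1 lower among muscle-rich spots. Without skeletal muscle spots 7 genes were lower for stress.

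Leaving out each section in turn gave, for Myh6 and Myl2, 1 to 3 of the 10 genes higher and 2 to 5 lower (1 and 5 without day 1), with 1330 to 1668 and 1141 to 1537 genes. For stress it gave 0 to 1 higher, with 0 to 134 genes higher (0 without day 4, 5 without day 7, 26 without day 14) and 0 to 143 lower. Among muscle-rich spots it gave 0 to 2 lower (0 without day 14), with 206 to 325 genes higher and 287 to 359 lower, and for macrophage markers 1 to 2 higher and 4 to 7 lower, with 1116 to 1515 and 1068 to 1520 genes.

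Changes of sign by total UMIs were Pgk1 0.29, Pkm 0.19 and Ldha 0.18 for Myh6 and Myl2, Aldoa 0.01, Gapdh 0.09 and Pkm 0.12 for stress, Aldoa 0.09 (called), Gapdh 0.02, Pgk1 0.07, Pkm 0.04 and Ldha 0.09 among muscle-rich spots, and Pfkp 0.37 (called) and Pkm 0.05 for macrophage markers. In the stress ranking Pkm, at 0.00, was at 0.00 without mitochondrial genes, with genes of at least 100 UMIs and with no hemoglobin filter, 0.03 with all genes, 0.02 with only both compared quartiles and 0.06 without skeletal muscle spots, where Aldoa was at 0.03 and Gapdh at 0.02. Leaving out each section in turn, it gave Pkm -0.03 to 0.04, Aldoa -0.18 to 0.02, Gapdh -0.15 to 0.10 and Eno1 -0.23 (without day 1) to 0.47. Among muscle-rich spots Hk1 was at -0.01 with no hemoglobin filter, and leaving out sections gave Slc2a1 -0.12 to 0.33 and Hk1 -0.02 to 0.05.

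The section block pairs the quartiles of a section; without it the call of Hk2 in muscle-poor spots was lost, at -0.51.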
